A study of Homo sapiens with 12 samples.

Results

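The mitochondrial ribosomal protein genes were taken as the protein-coding genes whose GENCODE symbol starts with MRPL or MRPS followed by a number, which gave 78 genes (49 MRPL and 29 MRPS) of the 58721 gene identifiers counted, 19850 of them protein-coding. They were followed by ribosome profiling (ART-seq) in HepG2 cells, an established human line from a liver tumour. The cells had been transiently transfected with siControl, the control siRNA, or with siIGF2BP3, which targets the mRNA-binding protein IGF2BP3. The cells were treated 2 days after knockdown with 100 µg/mL cycloheximide for 4 min, which holds ribosomes on mRNA, in the control groups as well. Each condition gave Input libraries, which report RNA abundance, and RPF libraries of ribosome-protected fragments, in 4 groups (siControl Input, siIGF2BP3 Input, siControl RPF and siIGF2BP3 RPF) of 3 libraries. Nothing in the labels says whether the 3 libraries of a group came from separate cultures, so p-values measure the spread between these libraries. In bulk samples, fewer cells with an RNA and less of that RNA per cell cannot be told apart.

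Mitochondrial ribosomes translate the few proteins encoded in mitochondrial DNA, all of them parts of the oxidative phosphorylation machinery. Their rRNAs are made inside the organelle, whereas all their proteins are encoded in the nucleus, translated in the cytosol and imported. Most MRPL proteins belong to the large subunit, which joins amino acids, and most MRPS proteins to the small subunit, which reads the mRNA. Some descend from proteins of bacterial ribosomes and others were added during the evolution of mitochondria. By subunit, 51 of the 78 products are in the large subunit, including MRPS18A and MRPS30 despite their names, and 26 in the small one. The remaining MRPS36 meets the naming rule but is known as a component of the alpha-ketoglutarate dehydrogenase complex. Counterparts in bacteria are known for 46 of the products, and 31 ribosomal members have none.

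Library totals ran from 11219750 counts (siIGF2BP3 Input replicate 1) to 31510601 counts (siControl RPF replicate 1), and each of the 78 genes had at least 49 counts in every Input library and at least 160.9 in every RPF library. All 8 hepatocyte markers were present in Input, between 121.8 and 22270 CPM (the count as a share of the library total, in parts per 1000000), and of 6 markers of other lineages PTPRC and VIM were listed at 0, COL1A2 reached 0.00666 CPM, COL1A1 0.448, PECAM1 1.49 and EPCAM, an epithelial marker, 286.9 CPM. siControl RPF replicates 2 and 3 differed by less than the sampling noise (mean chi-square per gene 0.941 over all genes and 0.972 over the 78, where counting noise alone gives about 1), so their average entered means and SDs as 1 sample, and n is 2 there. The main edgeR fits in RPF and TE kept both as separate libraries, so the p-values given count them as 2. When they were summed, the share of all genes called went from 1.66% to 0.0673% in RPF and from 2.17% to 1.06% in TE. siIGF2BP3 RPF replicate 1 stood apart from its group: over the 78 genes its mean chi-square was 16.5 against replicate 2 and 20.4 against replicate 3, compared with 1.18 between replicates 2 and 3. Counts of members called in RPF and TE are therefore also given after leaving out siIGF2BP3 RPF replicate 1 and after summing replicates 2 and 3 of siControl RPF. In the first case the siIGF2BP3 RPF libraries left differ by little more than counting noise (mean chi-square 1.15 over all genes). The share of all genes called there was 16.5% in RPF and 10.0% in TE. The targeted gene IGF2BP3 was lower in each siIGF2BP3 library than in each siControl library of the same assay, by -0.39 ± 0.05 (SE) on the log2 scale in Input (adjusted p = 1.06e-05, edgeR) and by -1.59 ± 0.08 in RPF (adjusted p = 0.000301, edgeR).

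The 78 genes together held under 1% of the counts of each library. Their share of all counts was 0.430%, 0.430% and 0.429% in siControl Input replicates 1 to 3 and 0.418%, 0.424% and 0.425% in siIGF2BP3 Input replicates 1 to 3. In RPF the shares were 0.556%, 0.543% and 0.544% in siControl and 0.560%, 0.553% and 0.553% in siIGF2BP3. The 3 siIGF2BP3 Input libraries lay below the 3 siControl Input libraries, with means of 0.422% ± 0.0037 (SD, n = 3) and 0.430% ± 0.0006 (SD, n = 3). The RPF groups overlapped, at 0.550% ± 0.0087 (SD, n = 2) in siControl and 0.555% ± 0.0044 (SD, n = 3) in siIGF2BP3. Relative to protein-coding counts alone, which took 96.2% to 96.6% of Input but 82.7% to 86.2% of RPF counts, the 4 mean shares were 0.445% and 0.438% in Input and 0.638% and 0.660% in RPF, in the order siControl and siIGF2BP3. On that scale the RPF groups did not overlap, with 0.644%, 0.631% and 0.632% in siControl and 0.677%, 0.653% and 0.651% in siIGF2BP3. The share of RPF counts on protein-coding genes itself was 86.2%, 86.0% and 86.0% in siControl and 82.7%, 84.7% and 84.9% in siIGF2BP3.

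**Figure D1:**
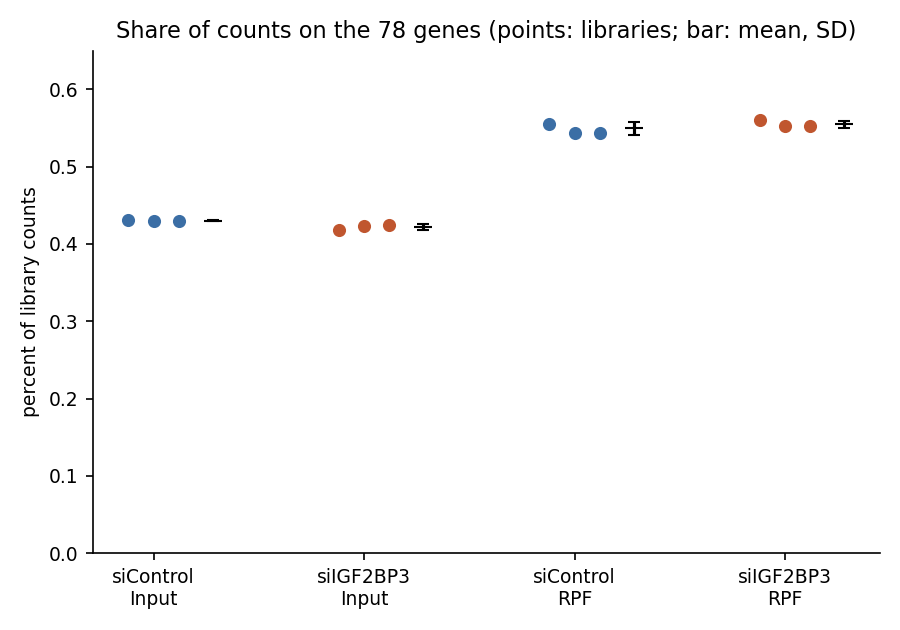
Percent of all library counts on the 78 mitochondrial ribosomal protein genes in each of the 12 libraries (points, replicates 1 to 3 from left to right; black bar, mean and SD). The Input libraries sit near 0.42% to 0.43% and the RPF libraries near 0.54% to 0.56%, and on this scale of all counts the Input groups do not overlap and the RPF groups do.

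The proteins of a ribosome are needed in similar numbers, so the levels of their genes were compared per length. In siControl Input the median was 18.3 CPM per kb of exon, and 50 of the 78 genes were within 2-fold of it. In siControl RPF the median was 29.0 CPM per 100 codons, and 61 of the 78 genes were within 2-fold of it. The middle 80% of the genes spanned 6.51-fold in Input per kb and 4.38-fold in RPF per 100 codons. The same spans over the 11785 protein-coding genes tested in both assays were 42.3-fold and 74.9-fold, and over 84 cytosolic ribosomal protein genes 15.1-fold and 8.15-fold. They were 18.9-fold and 7.87-fold over 77 oxidative phosphorylation subunits, and 15.5-fold and 23.8-fold over 16 mitochondrial translation factors. Over 24 factors of mitochondrial ribosome assembly they were 7.04-fold and 6.65-fold, so a span of this size in Input was not particular to ribosomal proteins. Both scales rest on one length per gene, the deposited exon length in Input and the canonical coding sequence in RPF. Across the 78 genes, which share these libraries, Input per kb and RPF per 100 codons had a Spearman rho of 0.36.

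The highest Input levels per kb were those of MRPL18 (105.1 CPM per kb), MRPS26 (84.9), MRPS9 (69.9), MRPL14 (62.4) and MRPL45 (54.95). MRPL18 has a bacterial counterpart that binds the small rRNA of the large subunit, and MRPL14 one that lies at the face between the subunits. The lowest were MRPS12 (2.48 CPM per kb), a protein of the decoding centre, MRPL49 (3.15), MRPS11 (3.51), MRPS24 (4.08) and MRPS2 (4.24). The footprint scale gave a different order. MRPL52 was highest at 186.6 CPM per 100 codons, followed by MRPL33 (115.5), MRPL51 (91.8), MRPL14 (88.3) and MRPS21 (77.4), and of these 5 only MRPL14 was among the 5 highest in Input. MRPS31 was lowest at 5.98 CPM per 100 codons, followed by MRPS6 (10.8), MRPS17 (12.8), MRPL38 (13.2) and MRPL46 (13.6). MRPL12, the stalk protein that the mitochondrial ribosome carries in several copies, stood at 35.3 CPM per 100 codons, 1.22 times the median of the 78 genes, and at 33.1 CPM per kb in Input, 1.80 times the median. MRPL12 shares 68.2% of its exon length with a readthrough gene on the same strand (ENSG00000262660), which itself was at 118.6 CPM in siControl RPF against 69.9 CPM for MRPL12, so the level of MRPL12 is uncertain.

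**Figure D2:**
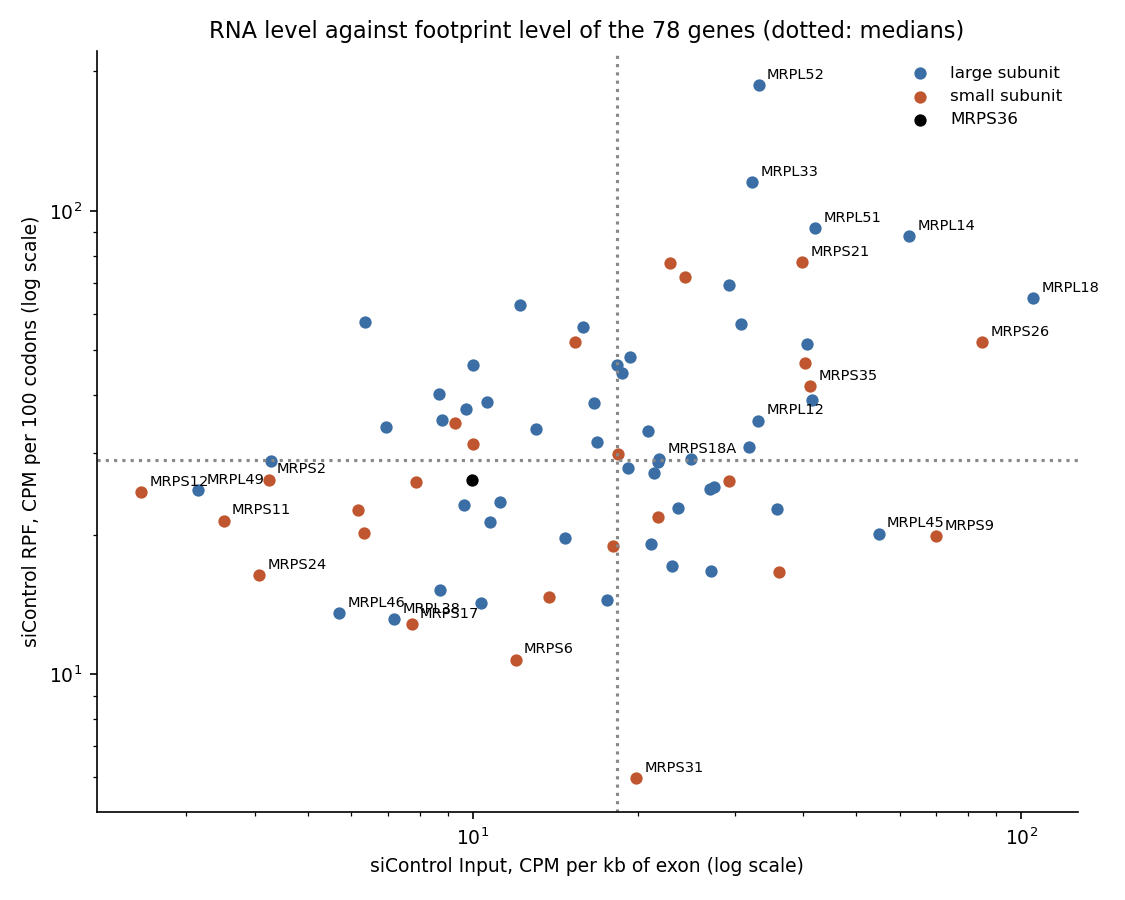
Input level (CPM per kb of exon) against footprint level (CPM per 100 codons) of the 78 genes in siControl, both on log scales, coloured by subunit, with dotted lines at the medians of 18.3 and 29.0. The footprint scale spans 31.2-fold from MRPS31 to MRPL52 and the Input scale 42.3-fold from MRPS12 to MRPL18.

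The ratio of RPF to Input shows how many footprints a gene gave for its RNA. Its median over the 78 genes was 0.74 on the log2 scale in siControl, against -0.14 over the 11785 protein-coding genes tested, a difference of 0.88. The ratio was above the protein-coding median in 61 of 78 genes (78.2%) in siControl and in 63 (80.8%) in siIGF2BP3. Nuclear genes of oxidative phosphorylation subunits had a median of 0.79 (77 genes), and cytosolic ribosomal protein genes one of -1.24 (84 genes). Large-subunit genes had a median of 0.78 and small-subunit genes one of 0.10. Members are not replicates of a condition, so no test was made between these groups of genes.

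Individual members spread over a wide range. MRPS2, whose product lies near the mRNA exit side of the small subunit, had the highest ratio at 7.46 footprint CPM per Input CPM, followed by MRPS12 (log2 ratio 2.68), MRPL4 (2.37), MRPL49 (2.09) and MRPL13 (1.94). The lowest log2 ratios were those of MRPS6 (-1.93), MRPS5 (-1.77), MRPL30 (-1.28), MRPL42 (-1.17) and MRPS25 (-0.94). Input is the divisor of the ratio, and several of these genes were at the ends of Input in siControl. MRPS12, MRPL49 and MRPS2 had the lowest mean Input of the 78 genes (5.32, 9.70 and 10.4 CPM). MRPS5 and MRPL42 had the highest (243.4 and 199.8 CPM). Some of these genes share counts with others: MRPS6 shares exons on the same strand with SLC5A3 (33.7 CPM in siControl RPF against 13.5 CPM for MRPS6), and the processed pseudogene MRPL30P1 held footprint counts equal to 56.5% of those of MRPL30. MRPL30, at 27.6 CPM in siControl RPF, also shares exons on the same strand with ENSG00000241962 (24.4 CPM) and ENSG00000273155 (19.2 CPM). Its counts were fractional in all 12 libraries, so its ratio is uncertain. MRPL42 has the longest exon annotation of the 78 genes, 16393 bases for a product of 142 codons. The order was nearly the same in both conditions, with a Spearman rho of 0.985 between siControl and siIGF2BP3 ratios over the 78 genes, which share length and annotation between conditions.

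**Figure D3:**
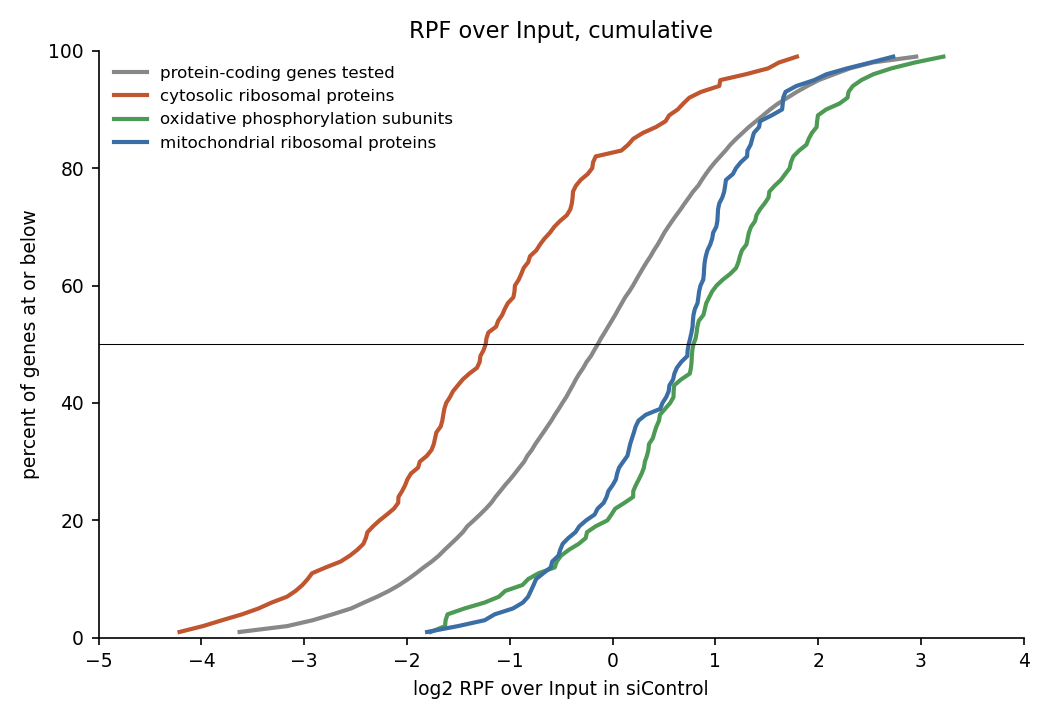
Cumulative percent of genes by log2 RPF over Input in siControl for the 78 mitochondrial ribosomal protein genes (blue), 77 oxidative phosphorylation subunits (green), 84 cytosolic ribosomal proteins (red) and 11785 protein-coding genes (grey). At the 50% line the curves cross at 0.74, 0.79, -1.24 and -0.14.

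After knockdown, most of the 78 genes had slightly lower RNA values, and 3 fell beyond the spread between replicates. MRPS18A (log2 fold change -0.28 ± 0.08, SE, adjusted p = 0.0374), MRPS35 (-0.20 ± 0.06, adjusted p = 0.0300) and MRPL45 (-0.20 ± 0.06, adjusted p = 0.0382) passed the edgeR quasi-likelihood test over all 14759 genes. None rose. Among all genes tested 1.90% fell and 4.05% rose, and the count of 3 among 78 was not tested against these shares. The fold change was negative in 63 of 78 members (80.8%), against 49.5% of all genes tested, and the median was -0.10 against 0.00, or -0.0631 with an offset for gene length. Relative to all genes, the median member lay lower by 0.11, 0.07 and 0.08 in siIGF2BP3 Input replicates 1, 2 and 3. All 3 siIGF2BP3 libraries were below all 3 siControl libraries in 13 members (16.7%; all genes 5.73%) and above them in 5 (6.41%; all genes 19.2%). Unadjusted p was under 0.05 in 22 members (28.2%; all genes 20.4%). Cytosolic ribosomal protein genes and oxidative phosphorylation subunits had medians of -0.10 and -0.09, so the shift was not particular to mitochondrial ribosomal protein genes by this measure.

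MRPS18A (chr6:43671303-43687791, minus strand, hg38) is 1 of 3 human relatives of a single bacterial small-subunit protein and the one that became part of the large subunit. It measured 26.4, 28.9 and 29.0 CPM in siControl Input replicates 1 to 3 against 23.4, 23.5 and 25.01 CPM in siIGF2BP3 Input. The means were 28.1 ± 1.49 and 23.95 ± 0.919 CPM (SD, n = 3 each), with no overlap between the groups. MRPS35 (chr12:27710773-27756295, plus strand), a small-subunit protein without a bacterial counterpart, measured 79.7, 84.5 and 80.3 CPM in the siControl Input libraries against 76.3, 72.1 and 72.0 CPM in siIGF2BP3 Input. MRPL45 (chr17:38297023-38323218, plus strand), a large-subunit protein near the exit of the peptide tunnel, where the ribosome meets the inner membrane, measured 90.5, 100.1 and 90.5 CPM in the siControl Input libraries against 87.1, 80.8 and 86.3 CPM in siIGF2BP3 Input. In both genes each siIGF2BP3 library was lower than each siControl library. The 3 calls were not stable: none of them held without siControl Input replicate 2 or 3 or without siIGF2BP3 Input replicate 2 or 3, or with an offset for gene length, and the MRPS18A call was also lost without siIGF2BP3 Input replicate 1 and with DESeq2. Without siControl Input replicate 1 edgeR called 6 members, all lower (all genes 2.91%), and without siIGF2BP3 Input replicate 2 it called MRPS31 alone, as higher (all genes 2.95%).

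The promoters of these 3 genes are shown because their RNA fell. Each runs from 250 bases before to 50 bases after the start used for the promoter (RefSeq, GRCh38.p14), 5′ to 3′ on the gene's own strand. In MRPS35 and MRPL45 that start lies downstream of the gene start given above. Capitals mark matches on either strand to 3 short cores of factors known to act on genes of mitochondrial proteins: CCGGAAG (ETS family), AAGATGGC (YY1) and GCGCANGCG (NRF1).
MRPS18A, chr6:43687742-43688041, minus strand: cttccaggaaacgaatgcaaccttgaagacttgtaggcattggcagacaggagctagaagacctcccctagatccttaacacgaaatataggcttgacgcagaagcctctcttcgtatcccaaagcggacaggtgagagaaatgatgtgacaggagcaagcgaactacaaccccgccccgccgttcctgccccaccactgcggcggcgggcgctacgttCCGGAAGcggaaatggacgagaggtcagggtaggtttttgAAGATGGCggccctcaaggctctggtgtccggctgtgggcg
MRPS35, chr12:27710582-27710881, plus strand: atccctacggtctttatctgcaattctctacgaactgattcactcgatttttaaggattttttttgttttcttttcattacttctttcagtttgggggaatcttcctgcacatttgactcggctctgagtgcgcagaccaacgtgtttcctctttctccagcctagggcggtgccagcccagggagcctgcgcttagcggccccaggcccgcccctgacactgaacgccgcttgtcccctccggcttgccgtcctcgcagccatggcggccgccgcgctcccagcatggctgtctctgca
MRPL45, chr17:38296918-38297217, plus strand: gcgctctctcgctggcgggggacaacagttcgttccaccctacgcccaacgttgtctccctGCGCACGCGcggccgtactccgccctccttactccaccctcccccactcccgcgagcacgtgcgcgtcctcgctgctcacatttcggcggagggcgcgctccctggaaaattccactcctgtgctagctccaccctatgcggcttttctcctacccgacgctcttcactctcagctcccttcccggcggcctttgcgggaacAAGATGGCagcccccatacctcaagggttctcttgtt
MRPS18A holds an ETS and a YY1 core, MRPL45 an NRF1 and a YY1 core, and in the MRPS35 window none of these letters occur. A promoter was found for 69 of the 78 genes. The ETS core was present in 29 of them (against 10.7% of 27305 promoters and 20.3% of the 9710 of protein-coding genes tested in Input). The YY1 core was present in 20 (29.0%, against 3.03% and 5.67%) and the NRF1 core in 13 (18.8%, against 8.05% and 15.5%). The first match of the YY1 core lay after the start on the sense strand in 15 of the 20, as in MRPS18A and MRPL45, where it holds an ATG. The median RNA fold change was -0.10 in the 20 members with the YY1 core and -0.08 in the 49 without it, and -0.09 both with and without the ETS core. These matches describe the windows and say nothing of which factor binds there.

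MRPS33, a small-subunit protein (-0.23 ± 0.07, adjusted p = 0.0662, edgeR), and MRPL46, a large-subunit protein (-0.21 ± 0.07, adjusted p = 0.0758, edgeR), had the lowest values after MRPS18A, below those of MRPS35 and MRPL45, and did not pass. The 3 highest values were those of MRPS31 (0.19 ± 0.07, adjusted p = 0.0789), MRPS2 (0.19 ± 0.11, adjusted p = 0.342) and MRPL34 (0.19 ± 0.10, adjusted p = 0.328), and none passed (edgeR). MRPS31 measured 41.5, 42.8 and 42.3 CPM in the siControl Input libraries against 52.9, 46.3 and 50.9 CPM in siIGF2BP3 Input, so the groups did not overlap. MRPL46 and MRPS11, which encode proteins of different subunits, lie head to head on chromosome 15 with starts 34 bases apart, MRPL46 on the minus strand (hg38, 88459476 to 88467419) and MRPS11 on the plus strand (88467453 to 88480773). MRPS11 had a value of 0.09 ± 0.09 (adjusted p = 0.658, edgeR), opposite in sign to MRPL46. In all, 18 members (23.1%) had a protein-coding gene on the opposite strand starting within 1000 bases upstream or up to 100 bases into them, against 11.1% of the 12218 protein-coding genes tested. Of the 16 neighbours tested, 10 had a negative RNA value, with a median of -0.04, where 51.4% of the 12218 protein-coding genes tested were negative. MRPL46 and MRPS11 are themselves counted among the neighbours, each as that of the other.

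**Figure D4:**
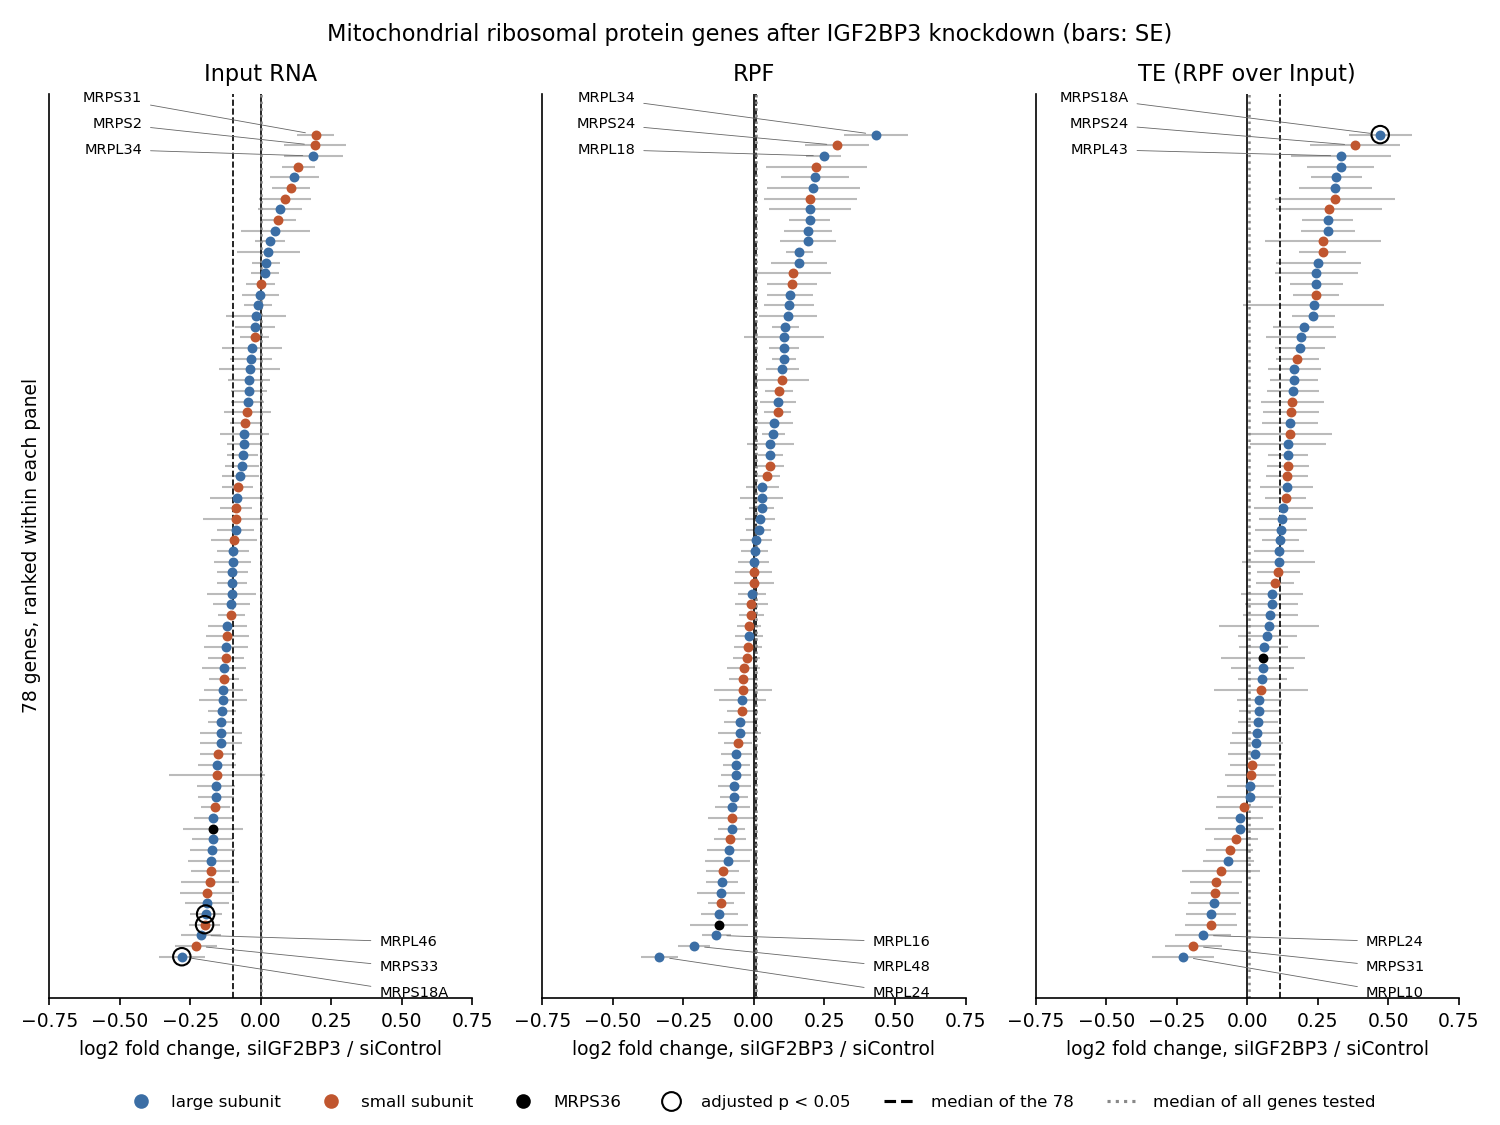
Log2 fold change (siIGF2BP3 over siControl) of the 78 genes in Input RNA, RPF and TE, ranked within each panel, with SE bars, coloured by subunit; circles mark adjusted p under 0.05, the dashed line is the median of the 78 genes and the dotted line that of all genes tested. The dashed lines lie at -0.10 (RNA), 0.01 (RPF) and 0.12 (TE), and the circled genes are MRPS18A, MRPS35 and MRPL45 in RNA and MRPS18A in TE.

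The footprint values of the 78 genes lay on both sides of 0, with a median near that of all genes. None passed the test in RPF (edgeR, 20192 genes tested, of which 1.02% rose and 0.649% fell), and 11 (14.1%; all genes 16.1%) had an unadjusted p under 0.05. The median was 0.01, the same as over all genes (0.01), with 40 positive and 38 negative values. In 10 members every siIGF2BP3 library was under every siControl library (12.8%; all genes 14.8%), and in 14 it was over it (17.9%; all genes 10.9%). DESeq2 called 3 members, MRPL24 lower (all genes 1.43%) and MRPL18 and MRPL34 higher (all genes 1.91%). Without siIGF2BP3 RPF replicate 1 edgeR called 10 members, 5 higher and 5 lower (all genes 7.97% and 8.57%). With siControl RPF replicates 2 and 3 also summed it called 9, 4 higher and 5 lower (all genes 7.08% and 7.40%), and with the sum alone it called 0 (all genes 0.0673%, of which 0.0481% rose and 0.0192% fell).

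The members at the ends of the RPF order were separated between groups. MRPL24, a protein of the tunnel exit region, was at 40.2, 41.2 and 43.99 CPM in siControl RPF against 29.5, 34.4 and 34.0 CPM in siIGF2BP3 RPF (log2 fold change -0.34 ± 0.07, adjusted p = 0.0558, edgeR). MRPL34, a short large-subunit protein with a bacterial counterpart, was at 31.0, 31.9 and 31.7 CPM in siControl RPF against 49.4, 39.2 and 38.2 CPM in siIGF2BP3 RPF (0.43 ± 0.11, adjusted p = 0.110, edgeR). In both genes siIGF2BP3 RPF replicate 1 was the library farthest from siControl, and replicates 2 and 3 were also outside the siControl range. Both are also among the calls made without that replicate. MRPL34 shares 13.2% of its exon length with ABHD8, an antisense neighbour at 6.56 CPM in siControl RPF. The other extremes did not pass: MRPL48 (-0.21 ± 0.06, adjusted p = 0.115), MRPL16 (-0.13 ± 0.05, adjusted p = 0.250), MRPS24 (0.29 ± 0.11, adjusted p = 0.253) and MRPL18 (0.25 ± 0.06, adjusted p = 0.103), all by edgeR. MRPL18, the highest member per kb in Input, had footprints of 116.7, 115.5 and 117.6 CPM in siControl RPF, and 144.6, 134.7 and 131.0 CPM were counted in siIGF2BP3 RPF, without overlap. MRPS24 had fractional counts in all 12 libraries and shares 23.2% of its exon length with the readthrough gene URGCP-MRPS24.

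Translational efficiency (TE), tested as the interaction of assay and knockdown, was mostly positive in the 78 genes, and 1 of them passed the test. TE was above 0 in 63 of 78 members (80.8%), against 51.6% of all 13395 genes tested, with a median of 0.12 against 0.01. TE and RNA share the Input libraries, so a lower Input value enters TE with the opposite sign. MRPS18A rose in TE by 0.47 ± 0.11 (adjusted p = 0.0298, edgeR), where 0.814% of all genes rose and 1.36% fell, and 12 members (15.4%; all genes 15.9%) had an unadjusted p under 0.05. Its footprints were at 57.0, 59.4 and 54.8 CPM in siControl RPF against 71.2, 62.5 and 60.0 CPM in siIGF2BP3 RPF, all 3 siIGF2BP3 libraries above all siControl libraries, with a log2 fold change of 0.19 ± 0.09 that did not pass (adjusted p = 0.328, edgeR). RPF over Input of MRPS18A was 2.03 in siControl and 2.69 in siIGF2BP3. When single libraries were left out the TE value stayed between 0.39 and 0.53, but the call was lost in 8 of 12 cases, holding only without siControl Input replicate 1 or without any 1 of the 3 siIGF2BP3 RPF replicates. It was also lost with siControl RPF replicates 2 and 3 summed (all genes 1.06%, with 0.408% rising and 0.652% falling), with the replicate number as a block, where TE was 0.47, and with a block for each culture. MRPS18A shares 47.0% of its exon length with RSPH9 on the opposite strand, which was listed at 0 in every group, and the pseudogene MRPS18AP1 held 3.63% as many footprint counts.

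The next highest TE values were those of MRPS24 (0.38 ± 0.16, adjusted p = 0.233) and MRPL43 (0.33 ± 0.18, adjusted p = 0.384), and the lowest those of MRPL10 (-0.23 ± 0.11, adjusted p = 0.320), a protein of the stalk base, MRPS31 (-0.19 ± 0.10, adjusted p = 0.370) and MRPL24 (-0.16 ± 0.10, adjusted p = 0.470). None of these passed (edgeR). In MRPL43 only siIGF2BP3 RPF replicate 1 lay outside the siControl range, with 82.5, 59.0 and 58.6 CPM against 61.9, 55.3 and 58.9 CPM in siControl RPF. Its lowest TE value with 1 library left out was 0.14. MRPL46 had Input values of 36.4, 36.2 and 37.3 CPM in siControl, against 34.7, 31.1 and 32.4 CPM in siIGF2BP3. Its footprints were 38.0, 38.2 and 37.2 CPM in siControl RPF, against 41.8, 39.5 and 39.0 CPM in siIGF2BP3 RPF. Like MRPS18A, it was lower in Input and higher in RPF without overlap, with a TE value of 0.32 ± 0.09 (adjusted p = 0.0769, edgeR). Without siIGF2BP3 RPF replicate 1, where the siIGF2BP3 RPF libraries left differ by little more than counting noise, edgeR called 10 members higher in TE and none lower (all genes 4.53% and 5.48%). They were MRPL11, MRPL18, MRPL21, MRPL45, MRPL46, MRPL50, MRPS10, MRPS18A, MRPS18C and MRPS35. With siControl RPF replicates 2 and 3 summed as well, edgeR called 5 higher and none lower (all genes 3.48% and 4.57%), namely MRPL46, MRPL50, MRPS10, MRPS18A and MRPS18C. Cytosolic ribosomal protein genes had a higher TE median of 0.21, and oxidative phosphorylation subunits one of 0.09.

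The 3 relatives of the bacterial S18 protein were compared side by side. MRPS18C, the small-subunit member that takes the bacterial position, measured 40.5, 36.7 and 37.6 CPM in the siControl Input libraries against 33.9, 34.8 and 36.2 CPM in siIGF2BP3 Input (log2 fold change -0.18 ± 0.07, adjusted p = 0.132, edgeR). Its footprints were at 36.6, 37.4 and 36.9 CPM in siControl RPF against 38.5, 39.0 and 38.9 CPM in siIGF2BP3 RPF (0.08 ± 0.05, adjusted p = 0.446, edgeR). As in MRPS18A, the siIGF2BP3 libraries were lower in Input and higher in RPF without overlap, and TE was 0.27 ± 0.08 (adjusted p = 0.106, edgeR). MRPS18B, a further small-subunit protein, had an RNA value of -0.09 ± 0.08, an RPF value of -0.11 ± 0.06 and a TE value of -0.01 ± 0.10 (adjusted p = 0.570, 0.407 and 0.977, edgeR). The Input groups of MRPS18B overlapped, and its siIGF2BP3 footprints were below those of siControl. Whether the TE values of the 3 genes differ from each other was not tested. MRPS18C shares 40.2% of its exon length with ABRAXAS1 on the opposite strand (7.63 CPM in siControl RPF).

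**Figure D5:**
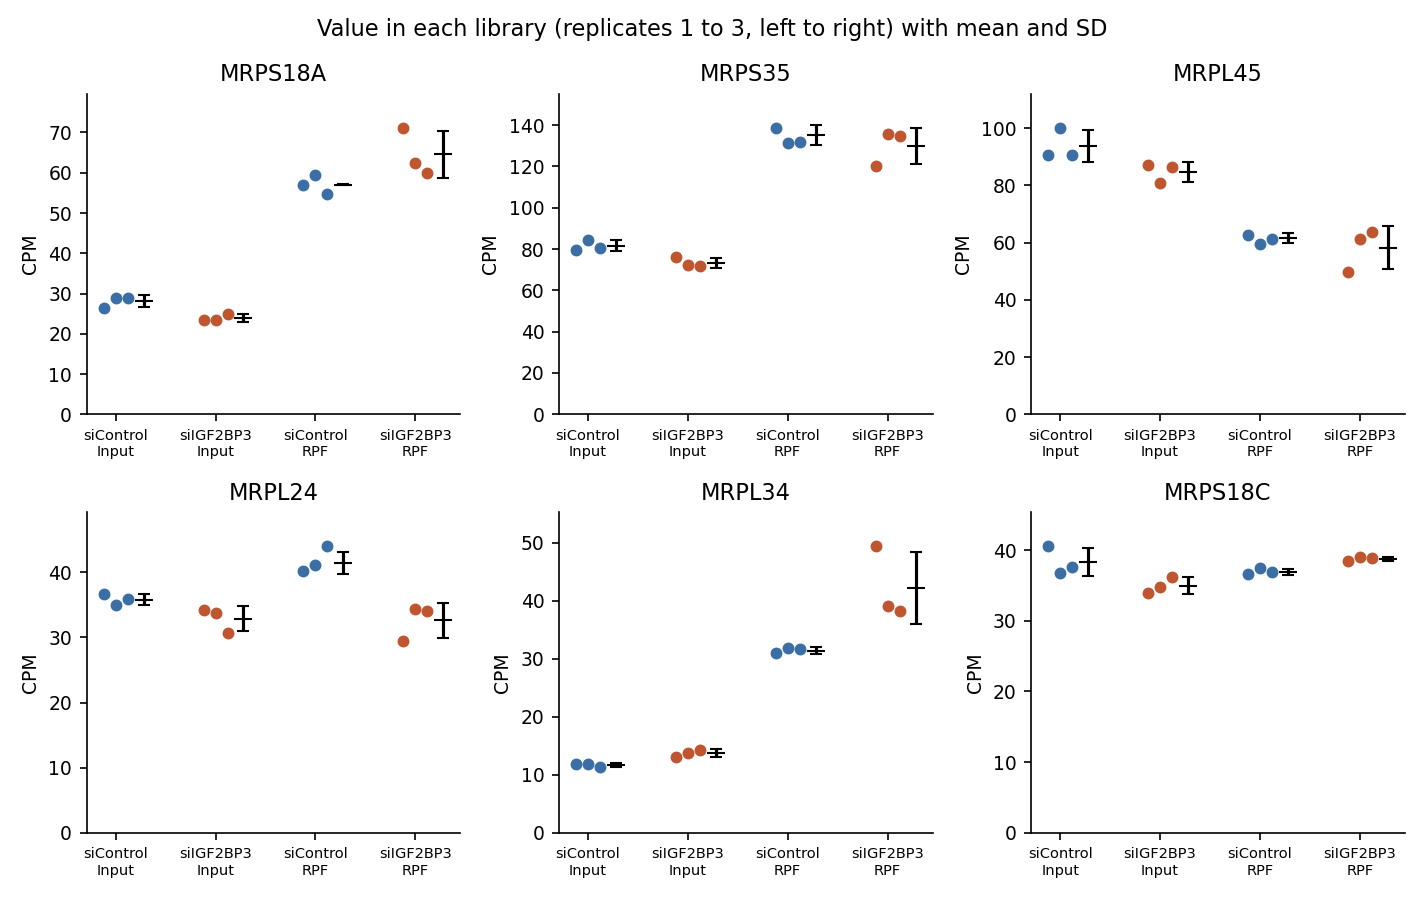
CPM in each library (points, replicates 1 to 3 from left to right; black bar, mean and SD, with siControl RPF replicates 2 and 3 averaged first) for MRPS18A, MRPS35, MRPL45, MRPL24, MRPL34 and MRPS18C. MRPS18A and MRPS18C are lower in siIGF2BP3 Input and higher in siIGF2BP3 RPF without overlap, and MRPL24 is lower in both assays.

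Genes of both subunits were mostly negative in RNA and mostly positive in TE. The RNA median was -0.10 in 51 large-subunit genes, with 43 negative, and -0.09 in 26 small-subunit genes, with 19 negative. The TE medians were 0.12 with 44 positive and 0.12 with 18 positive. The RPF medians were 0.03 with 30 positive and -0.01 with 10 positive. The 46 members with a bacterial counterpart had an RNA median of -0.08 and a TE median of 0.11, and the 31 without one -0.10 and 0.14. All 3 genes that fell in RNA belong to the 31 without a bacterial counterpart, a description of 3 genes and no test. MRPS18A and MRPS18B were placed there because MRPS18C takes the position of the bacterial protein. MRPS36, in neither group, had an RNA value of -0.17 ± 0.11 and a TE value of 0.06 ± 0.15 (adjusted p = 0.386 and 0.896, edgeR).

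The mitochondrial ribosome also holds proteins with other names. Of these, DAP3, a GTP-binding small-subunit protein, PTCD3, a pentatricopeptide repeat protein, CHCHD1, AURKAIP1 and GADD45GIP1 were examined, and none passed in RNA, RPF or TE. Their RNA values were all negative, between -0.11 and -0.01, and their TE values all positive, between 0.04 and 0.27. All 5 had the signs that 63 of the 78 named genes had in each comparison. Among all genes tested, 49.5% were negative in RNA and 51.6% positive in TE. RNA and TE share the Input libraries, so the 2 signs are not independent.

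Of 16 mitochondrial translation factors 1 rose in RNA (all genes 4.05%), whereas 2 rose in RPF (all genes 1.02%) and the same 2 in TE (all genes 0.814%). None fell (all genes 1.90%, 0.649% and 1.36%). These counts were not tested against the shares over all genes. MRRF, the ribosome recycling factor, measured 29.0, 32.2 and 30.6 CPM in the siControl Input libraries against 40.8, 38.5 and 40.7 CPM in siIGF2BP3 Input (log2 fold change 0.34 ± 0.07, adjusted p = 0.00424, edgeR). Its footprints had a value that did not pass (-0.07 ± 0.06, adjusted p = 0.744, edgeR). GUF1, a GTPase related to the bacterial elongation factor LepA, was at 32.3, 30.0 and 31.1 CPM in siControl RPF against 41.8, 44.6 and 46.1 CPM in siIGF2BP3 RPF (0.52 ± 0.05, adjusted p = 0.00728, edgeR), with a TE value of 0.50 ± 0.09 (adjusted p = 0.00693, edgeR). MTFMT, which formylates the initiator methionyl-tRNA, was at 9.62, 9.37 and 10.3 CPM in siControl RPF against 15.6, 14.4 and 14.3 CPM in siIGF2BP3 RPF (0.61 ± 0.08, adjusted p = 0.0173, edgeR), with a TE value of 0.82 ± 0.15 (adjusted p = 0.00693, edgeR). The TE calls of GUF1 and MTFMT held in all 23 alternatives tried. Their RPF calls held in 11 and 9 of 15 alternatives. With siControl RPF replicates 2 and 3 summed neither RPF call held (adjusted p = 0.0719 for GUF1 and 0.0971 for MTFMT, edgeR), nor did either without any 1 of the siControl RPF replicates, and the MTFMT call did not hold when siIGF2BP3 RPF replicate 2 or 3 was left out. Without siIGF2BP3 RPF replicate 1 the RPF values were 0.54 and 0.56, and both passed. The RNA call of MRRF held in 13 of 13 alternatives. The median of the list was -0.03 for RNA, -0.0025 for RPF and 0.05 for TE.

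Among 24 assembly factors, which modify the mitochondrial rRNAs or help the subunits mature, 1 passed, as higher in RNA, where 4.05% of all genes rose. This count was not tested against that share. MTG1, a GTPase of large-subunit assembly, rose in RNA from 17.3 ± 0.651 to 22.2 ± 0.162 CPM (SD, n = 3 each; log2 fold change 0.32 ± 0.09, adjusted p = 0.0284, edgeR), with all siIGF2BP3 libraries above all siControl libraries. That call held in 7 of 13 alternatives and was lost with DESeq2, without siControl Input replicate 2 or 3, and without any 1 of the siIGF2BP3 Input replicates. The RNA value was negative in 20 of the 24 (83.3%; all genes 49.5%), with a median of -0.09. TE was positive in 16 (66.7%; all genes 51.6%), with a median of 0.09.

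Counting sets a limit on some members. Exons of 41 of the 78 genes overlap another annotated gene, 16 of them on the same strand and 29 on the opposite strand, and whether counting used strand is not given in the sources used here. Examples among the named genes on the opposite strand, with the neighbour's level in siControl RPF, were MRPL49 (FAU, 255.8 CPM, and SYVN1, 187.5 CPM), MRPL51 (NCAPD2, 260.5 CPM), MRPL43 (SEMA4G, 55.4 CPM) and MRPS12 (SARS2, 19.9 CPM). On the same strand they included MRPL38 (ENSG00000267426, 45.2 CPM, 37.5% of the exon length of MRPL38), MRPS17 (NIPSNAP2, 39.3 CPM), MRPL33 (BABAM2, 37.2 CPM) and MRPL46 (ENSG00000173867, 23.99 CPM). The 79 annotated pseudogenes of 36 members together held 142.4 CPM in siControl RPF, 2.59% of the members' 5495 CPM, and 10.0 CPM in siControl Input, 0.233% of 4299 CPM. The largest in RPF were MRPL3P1 (24.2 CPM, 17.8% of MRPL3), MRPS21P1 (16.2 CPM) and MRPL30P1 (15.6 CPM). In Input none of these 3 exceeded 0.131 CPM.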

How the data were processed

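Input and RPF libraries of siControl and siIGF2BP3 HepG2 cells were analysed, 3 in each of 4 groups. Per the labels, cutadapt, STAR (genome hg38) and featureCounts were used by the authors (versions not given in the sources used here), who deposited estimated counts per gene, many of them fractions. These were rounded before testing, which changed a library total by at most 0.0445%. Symbols and types came from GENCODE release 44. The Input protocol is not described separately. edgeR 4.0.16 (R 4.3.3) quasi-likelihood tests with TMM factors (within assay for TE) were run on all genes passing filterByExpr, in 6 Input libraries (RNA), 6 RPF libraries (RPF) or all 12 (TE, assay by knockdown), with Benjamini-Hochberg adjustment over all genes at 0.05. DESeq2 1.42.0, other factors, filters, blocks, a gene-length offset and the leaving out of libraries were alternatives. The fit was tested on simulated data with a fixed spread between replicates and changes larger than those of the members. No simulated library stood apart from its group, so the test does not cover the RPF replicates described above. Reads carried no molecular identifiers, and the replicate spread is the error used. The members and lists were chosen with earlier results of these data known. Named were the members that passed, the 3 largest rises and falls per comparison, the 5 highest and lowest by level or ratio, the S18 relatives, other-named ribosomal proteins, and factors that passed.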

Additional observations from a re-analysis of the deposited data

How the results depend on the processing

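In RNA 3 members were called (all genes 5.96%). Upper-quartile factors gave 5 (all genes 6.22%), and leaving out 1 library gave 0 to 6 (all genes 2.95% to 6.04%). The gene-length offset gave 2 (all genes 5.76%), MRPL42 lower and MRPS31 higher, with 0 of the 3 genes shared. The median RNA fold change was -0.0631 with the length offset, in place of -0.10, and from -0.11 to -0.08 when 1 library was left out. In RPF, where no member was called (all genes 1.66%), DESeq2 gave 3 (all genes 3.34%) and no filter gave 1 (all genes 1.24%). Leaving out 1 library gave 0 to 10 (all genes 0.0532% to 16.5%), the 10 without siIGF2BP3 RPF replicate 1. With that replicate left out and siControl RPF replicates 2 and 3 summed, an alternative chosen after seeing the data, 9 were called (all genes 14.5%). The RPF median was -0.0104 with upper-quartile factors. In TE 1 member was called (all genes 2.17%). The replicate block, the block for each culture and the sum of siControl RPF replicates 2 and 3 each gave 0 (all genes 1.7%, 0.903% and 1.06%). Leaving out 1 library gave 0 to 10 (all genes 0.935% to 10.0%), and the added alternative gave 5 (all genes 8.05%). The TE median was 0.0798 with the length offset. Deviations of same-numbered libraries correlated by 0.003, -0.05 and -0.026 in Input and by 0.367, 0.27 and 0.099 in RPF for replicates 1, 2 and 3. Not every pair was over 0.1, and RPF replicate 3 of either group correlated better with replicate 2 of the other (0.149 and 0.194) than with its own number, so the numbers were not taken as pairs. RPF replicate 1 of either group correlated negatively with replicates 2 and 3 of the other (-0.367, -0.258, -0.273 and -0.145). In RPF, replicate 1 thus deviated from replicates 2 and 3 in a similar way in both groups, and the cause was not tested. The block changed no other call of a member: it gave 3 in RNA (all genes 6.31%) and 0 in RPF (all genes 1.88%). The difference in median log2 RPF over Input between members and protein-coding genes was 0.98 when taken per length. Relative to protein-coding counts the mean shares were 0.445%, 0.438%, 0.638% and 0.660%, and with pseudogene counts added 0.431% in siControl Input, 0.564% in siControl RPF and 0.569% in siIGF2BP3 RPF. The cause of these differences was not tested. Changes near the SE of single members (medians 0.07 in RNA, 0.06 in RPF and 0.09 in TE) could not be resolved at this depth and number of libraries. Values several times the SE did not all pass either, such as MRPL24 in RPF (-0.34 ± 0.07, adjusted p = 0.0558, edgeR).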
